A study of Homo sapiens with 37 samples.

Results

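The nuclear-encoded subunits of the respiratory chain were taken as the protein-coding genes whose symbol follows the naming pattern of the families NDUFA, NDUFB, NDUFC, NDUFS and NDUFV, SDHA to SDHD, UQCR, COX4 to COX8 and ATP5. The pattern matched 200 gene symbols, of which 115 were not protein-coding, mostly pseudogenes. The remaining 85 genes, of 57773 genes counted and 19263 protein-coding ones, comprise 36 genes of complex I, 4 of complex II, 9 of complex III, 16 of complex IV and 20 of complex V. The symbols COX4I1, CYC1, NDUFAB1, NDUFA4L2 and CYCS fall outside the pattern and are described with the other chain genes. NDUFA4 was placed with complex IV, of which it is a subunit.

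The respiratory chain lies in the inner mitochondrial membrane. Complex I takes electrons from NADH and complex II from succinate, and ubiquinone passes them to complex III, from which cytochrome c carries them to complex IV and on to oxygen. Complexes I, III and IV pump protons, and complex V, the ATP synthase, uses the gradient to make ATP. Complex II is built entirely from nuclear genes, whereas the other complexes also hold subunits encoded by mitochondrial DNA. Changes in mitochondrial mass, respiration and oxidant production are among the known features of senescent cells.

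The study compared human cells brought to senescence in several ways with control cells, by RNA sequencing of 37 libraries in 17 groups. Human aortic endothelial cells (HAEC, population doubling level, PDL, 4 to 6) were given 4 Gy of ionizing radiation (3 libraries) or left as controls (2), and human umbilical vein endothelial cells (HUVEC, PDL 3 to 5) received the same dose (3) or none (3). IMR-90 diploid lung fibroblasts were sampled at PDL 15, labelled proliferating (2), at PDL 15 after 10 Gy (2) and at PDL 52, labelled as replicatively exhausted (2). WI-38, another diploid lung fibroblast line, was used at PDL 25 in 5 experiments of 2 against 2 libraries. A first and a repeat experiment applied doxorubicin at 2 µg/mL for 24 h. In another, an empty lentiviral vector was compared with a lentivirus carrying HRAS(G12v), here called mutant HRAS, both at a multiplicity of infection of 10 with puromycin at 1 µg/mL. The last 2 compared 10 Gy with no irradiation, and cells at PDL 53 to 55 with proliferating cells at PDL 25. Whether libraries of a group came from separate cultures is not stated in the labels. The p-values therefore measure the spread between libraries, which may be technical. The time from exposure to harvest is not stated either.

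Libraries held 102293388 to 370996204 counts and were of 2 kinds. In 25 of them (HAEC, HUVEC, IMR-90, the first doxorubicin experiment and the HRAS experiment), 50.7 to 66.9% of counts were in protein-coding genes and at most 0.607% in mitochondrial genes. In the 12 of the repeat doxorubicin, WI-38 irradiation and WI-38 late-passage experiments these shares were 82.0 to 91.1% and 3.21 to 14.02%. The 85 genes took 0.756 to 1.34% of the counts in nuclear protein-coding genes. Levels are given as CPM, the gene's count scaled to library size within a set of libraries fitted together, so that levels of different sets are not on one scale. HRAS stood at 41.3 and 47.6 CPM of the plain library total with the empty vector and at 1731 and 1773 with mutant HRAS. The endothelial gene CDH5 was at 393 to 505 CPM in the endothelial libraries and at most 2.59 CPM in fibroblasts, and COL1A1, a collagen gene, was at 0.58 to 1.9 CPM in endothelium. The sum of 6 endothelial markers, CDH5 among them, was 1012 to 1360 CPM in the endothelial libraries and 10.97 to 306 CPM in fibroblasts. Other genes of that list were thus expressed in fibroblasts.

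In IMR-90 the proliferation marker MKI67 went against the labels. It stood at 19.8 and 17.4 CPM in the cells labelled proliferating, at 31.3 and 28.0 CPM after irradiation (log2 fold change 0.67, adjusted p = 7.07e-05, edgeR's quasi-likelihood test with Benjamini-Hochberg adjustment) and at 22.4 and 17.7 CPM at PDL 52. CDKN1A, an inhibitor of the cell cycle, was higher in both (log2 fold change 1.82 and 1.42). In every other experiment MKI67 was lower in each treated library than in each control. All IMR-90 results rest on these control libraries and are therefore given as comparisons with the cells labelled proliferating.

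Sequence upstream of the start site is shown for 3 genes to which the results return, chosen after their values were seen: ATP5MC1, which encodes subunit c of the ATP synthase, ATP5IF1, which encodes its inhibitor, and NDUFC1, an accessory subunit of complex I. The sequences are from RefSeq, build GRCh38.p14, 5′ to 3′ on the gene's strand, within the 250 bases before the RefSeq start and outside annotated exons of protein-coding transcripts. Capitals mark CCAAT or its reverse complement.
ATP5MC1, chr17:48892537-48892764, plus strand: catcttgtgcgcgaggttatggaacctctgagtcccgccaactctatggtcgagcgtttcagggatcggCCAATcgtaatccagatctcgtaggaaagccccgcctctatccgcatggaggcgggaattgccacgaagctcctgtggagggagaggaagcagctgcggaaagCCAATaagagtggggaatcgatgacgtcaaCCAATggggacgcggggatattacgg
ATP5IF1, chr1:28235874-28236108, plus strand: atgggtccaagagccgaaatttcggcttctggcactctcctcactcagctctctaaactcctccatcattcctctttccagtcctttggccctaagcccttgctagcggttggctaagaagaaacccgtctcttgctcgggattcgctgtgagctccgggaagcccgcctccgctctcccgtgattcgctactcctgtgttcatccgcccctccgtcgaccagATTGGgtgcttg
NDUFC1, chr4:139302552-139302801, minus strand: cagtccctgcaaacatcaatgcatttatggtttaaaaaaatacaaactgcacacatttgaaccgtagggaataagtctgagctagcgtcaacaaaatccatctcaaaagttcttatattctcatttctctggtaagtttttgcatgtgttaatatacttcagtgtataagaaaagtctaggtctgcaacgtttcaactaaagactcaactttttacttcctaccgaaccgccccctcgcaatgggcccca
The stretch of ATP5MC1 holds CCAAT at 181, 78 and 48 bases before the start, that of ATP5IF1 holds its reverse complement at 27 bases, and that of NDUFC1 holds none. Of the 85 genes, 68 had a window in RefSeq's table, from 250 bases before the start to 50 after it. Searched on both strands, CCAAT was in 25 of these windows (36.8%) and in 34.6% of all 35116 windows. The GABPA core CCGGAAGT was in 10 (14.7% against 4.14%), the NRF1 core GCATGCGC in 13 (19.1% against 3.05%), the YY1 core AAGATGGC in 11 (16.2% against 2.89%) and TATAAA in 7 (10.3% against 11.5%). The 35116 windows outnumber the 19263 protein-coding genes counted, so they are not matched gene for gene to the subunit genes. Shares for protein-coding genes alone are not given here, so these contrasts are not read as particular to subunit genes. GABPA, NRF1 and YY1 are factors known to act on many nuclear genes of mitochondrial proteins. A match is a string of letters and was not tested as a binding site.

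The subunit genes differed widely in level in unexposed cells. Levels per kilobase were divided by the median length of a gene's annotated protein-coding transcripts, short ones included, so their order depends on the annotation. They are means of 9 control libraries of the HAEC, HUVEC, IMR-90 and first doxorubicin experiments. ATP5F1A and ATP5F1B, of the catalytic head of the ATP synthase, were highest at 548 and 406 CPM per kb. The lengths used for them were 910 and 856 bases. COX7A2, UQCRB and ATP5MF followed at 206, 201 and 197 CPM per kb. In these means ATP5MC1 was at 73.0, ATP5MC2 at 83.1 and ATP5MC3 at 62.6 CPM per kb. The 3 genes, all of subunit c, were not close in every cell type. In IMR-90 at PDL 15 they were at 31.5, 74.8 and 54.3 CPM per kb, and in HAEC controls at 93.9, 91.5 and 85.7. At the low end, ATP5MGL was at 0.221, COX6B2 at 0.023, COX8C at 0.0131 and COX6A2 at 0.0031 CPM per kb, and COX7B2 had no count. Of the genes named in the text, NDUFA3, NDUFA7, NDUFA13, NDUFC2, NDUFV2, SDHA, SDHD, UQCRH, UQCRHL, COX6A1, COX6A2, COX6B2, COX8A, ATP5MF, ATP5PD and ATP5MGL share at least 20% of their 31-base stretches with other genes. NDUFC1, NDUFA9, NDUFS8, UQCR11, COX7C and ATP5MC2 overlap another gene on their own strand, and NDUFA2, NDUFA6, NDUFS1, SDHC, UQCRB, ATP5F1A, ATP5MC3 and ATP5MK overlap one on the opposite strand. Since the counting settings are not known, the values of all these genes are uncertain to the extent that reads could be shared. COX6A2 and COX7B2 did not pass the filter on low counts in any experiment, COX8C passed in the second kind of library, and COX6B2 passed in fibroblasts. Of the 85, 83 were tested somewhere and 81 in all 9 treated-against-control comparisons.

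The 4 fibroblast comparisons with libraries of the first kind and the 2 endothelial ones gave different pictures of the chain. Higher expression predominated in IMR-90 and with mutant HRAS, small changes in both directions in endothelium, and few calls in the doxorubicin experiments and in the second kind of library. A gene was called where its adjusted p was below 0.05. No gene was called in the same direction in 7 or more of the 9 comparisons, and 35 were called higher in at least 1 and lower in at least 1 other. ATP5IF1, NDUFA2, NDUFB5, NDUFC1 and SDHC were called higher in 5 of the 9. UQCRC1, a core protein of complex III, COX6B2 and COX8C were called in none. The shares of all genes with such counts are not given here, so the counts are not read as particular to subunit genes. In bulk RNA, fewer cells of a type and less RNA per cell cannot be told apart.

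**Figure D1:**
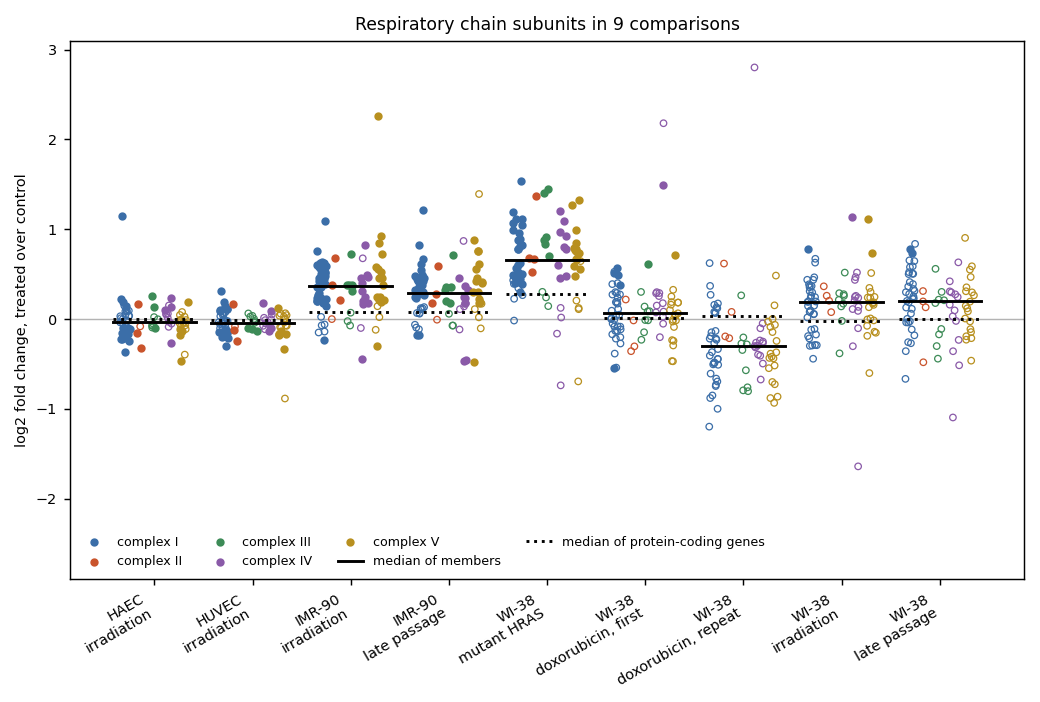
Log2 fold change of each subunit gene (points, by complex) in the 9 treated-against-control comparisons, filled where the adjusted p was below 0.05, with the median of the genes (solid line) and of all protein-coding genes tested (dotted line). The solid line lies farthest above the dotted one with mutant HRAS, at 0.66 against 0.28, and just below it in HAEC and HUVEC.

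In irradiated IMR-90, 64 of 82 subunit genes tested were higher and 3 lower than in the cells labelled proliferating, with a median log2 fold change of 0.37. Among all protein-coding genes tested, 38.5% were called higher and 27.3% lower, with a median of 0.08. At PDL 52, 54 were higher and 5 lower, with a median of 0.29, against 38.5% and 27.8% of protein-coding genes and a median of 0.08. Both comparisons use the same 2 control libraries, so their values are given side by side. Scaled on nuclear protein-coding genes alone, the counts were 50 higher and 8 lower after irradiation and 42 higher and 10 lower at PDL 52. The shares of protein-coding genes under that scaling were 34.0% higher and 31.8% lower after irradiation and 33.5% and 32.5% at PDL 52. The 7 lung fibroblast markers moved with these groups: their summed level was 14046 and 14801 CPM at PDL 15, 2920 and 2982 CPM after irradiation (7 of 7 lower) and 4464 and 4803 CPM at PDL 52 (6 lower, 1 higher). The sum of 6 epithelial markers was 13.05 and 13.6 CPM at PDL 15, 65.1 and 68.4 CPM after irradiation and 60.8 and 72.8 CPM at PDL 52 (4 of 5 tested were higher in each), with the epithelial gene EPCAM at 0.310 to 0.633 CPM in these libraries. The part of these shifts in the subunit results was not tested.

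Genes of all 5 complexes were called in both IMR-90 comparisons. In complex I, 29 of 36 genes were higher and 1 lower after irradiation (median 0.37), and 24 were higher and 2 lower at PDL 52 (median 0.32). NDUFC1 stood at 17.8 and 18.96 CPM at PDL 15, 39.5 and 38.8 CPM after irradiation and 40.7 and 44.4 CPM at PDL 52. The treated libraries were all more than 2-fold above the controls' level, with log2 fold changes of 1.09 ± 0.07 (SE, adjusted p = 6.44e-09) and 1.21 ± 0.07 (adjusted p = 2.12e-09). NDUFV3, an accessory subunit of the NADH-oxidizing module, was at 30.7 and 27.3 CPM at PDL 15 and at 53.3 and 49.7 CPM at PDL 52, a log2 fold change of 0.83 ± 0.07 (adjusted p = 1.62e-07). NDUFS1, the largest core subunit, was at 131.6 and 124.4 CPM at PDL 15 and 155.4 and 153.2 CPM at PDL 52, a log2 fold change of 0.27 ± 0.06 (adjusted p = 0.000951).

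In complex II, 3 of 4 genes were higher in both, with medians of 0.30 and 0.23. SDHB, the iron-sulfur subunit, was at 35.0 and 37.6 CPM at PDL 15, 57.5 and 58.5 CPM after irradiation (log2 fold change 0.68 ± 0.06, adjusted p = 4.03e-07) and 56.3 and 53 CPM at PDL 52 (0.59). SDHD, one of the membrane anchors, gave values of -0.00 and -0.01 (adjusted p = 0.993 and 0.929). Both groups of treated libraries lay above the controls for SDHB and overlapped them for SDHD. In complex III, 6 of 9 genes were higher in both. UQCR10, a small subunit, was at 22.4 and 26.2 CPM at PDL 15, 39.4 and 40.9 CPM after irradiation (0.72 ± 0.08, adjusted p = 2.79e-06) and 41.9 and 37.7 CPM at PDL 52 (0.71). UQCRB, which binds ubiquinone, gave -0.02 and -0.07 (adjusted p = 0.792 and 0.375).

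In complex IV, 10 of 13 genes were higher and 1 lower after irradiation, and 7 were higher and 2 lower at PDL 52. COX7C, a small subunit, was lower in both: 75.1 and 80.0 CPM at PDL 15, 55.2 and 58.6 CPM after irradiation (-0.45 ± 0.06, adjusted p = 1.79e-05) and 56.7 and 55.4 CPM at PDL 52 (-0.47 ± 0.06, adjusted p = 1.15e-05). COX7A1, the isoform known from heart and skeletal muscle, went in opposite directions. It was at 4.75 and 5.78 CPM at PDL 15, 9.06 and 9.58 CPM after irradiation (0.83 ± 0.12, adjusted p = 5.83e-05) and 4.27 and 3.40 CPM at PDL 52 (-0.45 ± 0.13, adjusted p = 0.00819). The difference between irradiated and PDL 52 cells was 1.28 ± 0.12 (adjusted p = 3.37e-05). The fall at PDL 52 was not called without the second PDL 15 library (-0.30, adjusted p = 0.12) or the second PDL 52 library (-0.30, adjusted p = 0.0652). Its paralog COX7A2, the form found in most tissues, was at 71.0 and 78.5 CPM at PDL 15 and at 101.4 and 103.6 CPM after irradiation, a log2 fold change of 0.46. Between irradiated and PDL 52 cells, 2 subunit genes differed, COX7A1 and NDUFA9, against 15.4% of protein-coding genes, with 1 left without either irradiated library and 4 without the first PDL 52 library.

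In complex V, 16 of 20 genes were higher and 1 lower after irradiation (median 0.41), and 14 were higher and 1 lower at PDL 52 (median 0.35). All 5 genes of the catalytic head were higher in both. ATP5F1B, its catalytic subunit, was at 266.4 and 277.6 CPM at PDL 15, 368.9 and 376.5 CPM after irradiation (0.45 ± 0.05, adjusted p = 8.06e-06) and 363.0 and 354.7 CPM at PDL 52 (0.40 ± 0.05, adjusted p = 2.77e-05). The 3 genes of the c-ring, which encode the same mature protein behind different targeting peptides, did not move together. ATP5MC1 was at 14.8 and 16.9 CPM at PDL 15, 29.3 and 30.9 CPM after irradiation (0.93 ± 0.07, adjusted p = 1.14e-07) and 27.6 and 26.1 CPM at PDL 52 (0.76 ± 0.07, adjusted p = 8.94e-07). ATP5MC2 was at 58.1 and 63.2 CPM at PDL 15, 47.9 and 50.8 CPM after irradiation (-0.30 ± 0.06, adjusted p = 0.00141) and 45.1 and 41.9 CPM at PDL 52 (-0.48 ± 0.06, adjusted p = 2.43e-05). ATP5MC3 gave 0.14 and 0.11, neither past the threshold. Treated and control libraries did not overlap for ATP5MC1 or ATP5MC2. ATP5IF1, which blocks ATP hydrolysis by the enzyme, was at 18.7 and 19.3 CPM at PDL 15, 33.6 and 34.9 CPM after irradiation (0.85 ± 0.07, adjusted p = 1.82e-07) and 37.2 and 32.8 CPM at PDL 52 (0.88 ± 0.07, adjusted p = 1.21e-07).

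**Figure D2:**
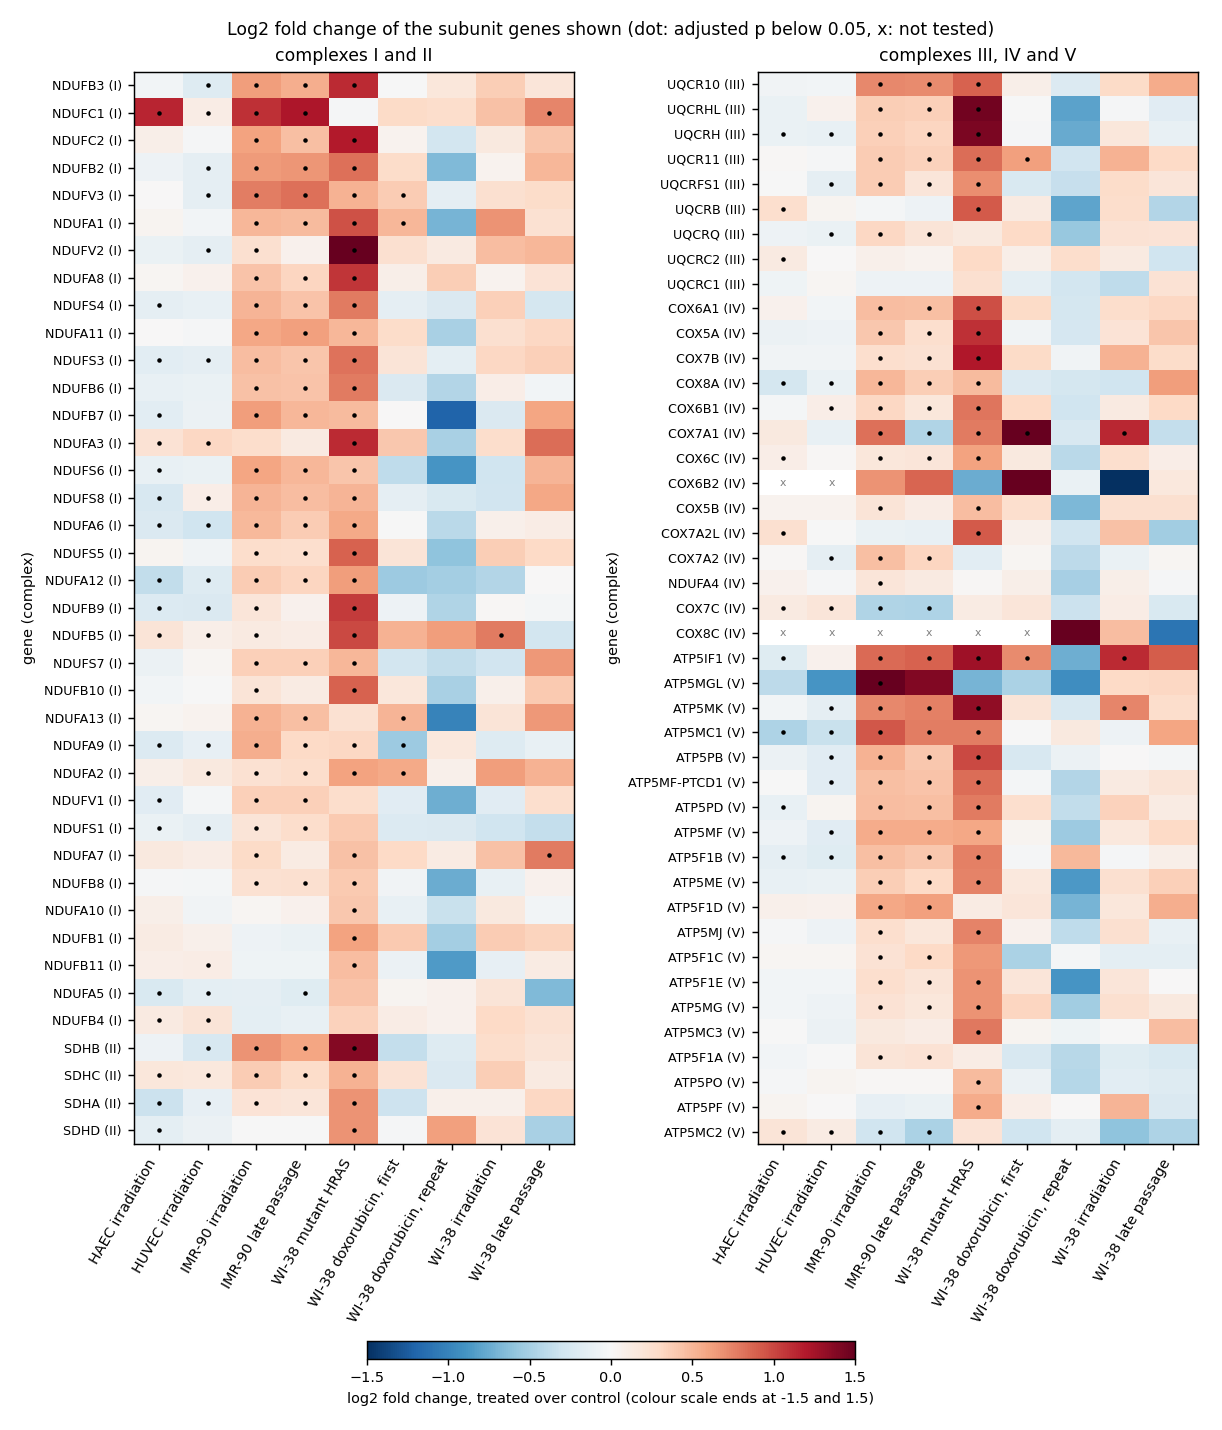
Log2 fold change of 82 subunit genes (rows, by complex) in the 9 comparisons (columns), from -1.5 to 1.5, where a dot marks an adjusted p below 0.05 and a cross a gene that was not tested. The columns of IMR-90 and of mutant HRAS hold most of the dots; over all subunit genes tested, 64 were called higher in irradiated IMR-90 and 64 with mutant HRAS.

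With mutant HRAS in WI-38, 64 of 82 subunit genes were higher and none lower than with the empty vector, with a median log2 fold change of 0.66. Among protein-coding genes 38.8% were called higher and 19.9% lower, with a median of 0.28. Scaling on nuclear protein-coding genes shifted the median of all genes from 0.07 to -0.18 and left 38 subunit genes higher and 1 lower, with a median of 0.40. Under that scaling 27.5% of protein-coding genes were higher and 27.3% lower. The distance of the subunit median from the protein-coding median was 0.38 under either scaling. A change of scaling shifts all genes nearly alike, so this distance could hardly move and is not a check of the result. Here too the fibroblast markers moved with the groups: the summed level of the 7 genes was 5847 and 6826 CPM with the empty vector and 881 and 979 CPM with mutant HRAS, lower for 7 of 7. The sum of 6 endothelial markers was 61.7 and 67.6 CPM with the vector and 10.97 and 13.3 CPM with mutant HRAS, although 5 of the 6 were called higher and 1 lower. That of 5 smooth muscle markers was 128 and 155 CPM and then 213 and 246 CPM (1 higher, 4 lower). The part of these shifts in the subunit results was not tested.

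Calls with mutant HRAS fell in each complex: 30 of 36 genes of complex I (median 0.54), 4 of 4 of complex II (0.67), 6 of 9 of complex III (0.84), 9 of 13 of complex IV (0.60) and 15 of 20 of complex V (0.71). NDUFV2, an iron-sulfur core subunit of complex I, was at 50.7 and 36.1 CPM with the empty vector and at 138.7 and 112.5 CPM with mutant HRAS (1.53 ± 0.17, adjusted p = 1.41e-05). NDUFC2, of the membrane arm, was at 46.2 and 43.5 CPM and then at 107.8 and 97.1 CPM (1.19 ± 0.12, adjusted p = 8.39e-06). The other NDUFC gene, NDUFC1, was at 26.8 and 21.8 CPM and then at 25.9 and 22.1 CPM, groups that overlap (-0.02 ± 0.14, adjusted p = 0.933). SDHB was at 33.4 and 19.4 CPM and then at 78.7 and 58.0 CPM (1.37 ± 0.22, adjusted p = 3.06e-04), and SDHA, the flavoprotein, at 64.7 and 80.3 CPM and then at 115.8 and 115.6 CPM (0.67 ± 0.13, adjusted p = 0.00109). UQCRH, the acidic hinge protein of complex III, was at 68.7 and 60.9 CPM and then at 185.2 and 158.7 CPM (1.41 ± 0.14, adjusted p = 5.82e-06). Its near-copy UQCRHL was at 7.33 and 6.15 CPM and then at 19.7 and 16.96 CPM (1.44 ± 0.15, adjusted p = 1.03e-05). UQCRH shares 43.9% of its 31-base stretches with other genes, most of all with UQCRHL, so reads of one can be counted for the other. COX6A1, NDUFV2 and SDHA share 49.5%, 40.2% and 39.0% of theirs.

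In complex IV, COX6A1 was at 89.1 and 90.5 CPM with the empty vector and at 183.9 and 168.1 CPM with mutant HRAS (0.97). COX7A2L, which helps join complexes III and IV into supercomplexes, was at 76.5 and 73.4 CPM and then at 149.1 and 135.0 CPM (0.92). COX7A1 was at 4.31 and 4.65 CPM and then at 7.75 and 7.66 CPM (0.78 ± 0.14, adjusted p = 6.18e-04), whereas COX7A2 gave -0.16, not past the threshold, and -0.42 (adjusted p = 0.0137) with scaling on nuclear protein-coding genes. NDUFA4 was at 80.6 and 49.97 CPM with the empty vector and at 72.3 and 59.8 CPM with mutant HRAS (0.02, adjusted p = 0.953). Its direction rested on single vector libraries, at -0.38 (adjusted p = 0.0152) without the second and 0.41 (adjusted p = 0.0176) without the first. COX7B was at 17.8 and 6.84 CPM and then at 32.5 and 24.3 CPM (1.21 ± 0.32, adjusted p = 0.00825), not called without the first HRAS library (0.99, adjusted p = 0.0539). The second vector library was below the first for NDUFV2, SDHB, COX7B, NDUFA4 and NDUFS1. Leaving it out gave 55 genes higher and 1 lower, and leaving out the first gave 70 called.

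In complex V, ATP5MC1 was at 30.8 and 35.0 CPM with the empty vector and at 55.4 and 56.7 CPM with mutant HRAS (0.77 ± 0.12, adjusted p = 3.30e-04), and ATP5MC3 at 41.4 and 40.2 CPM and then at 71.4 and 69.9 CPM (0.79 ± 0.12, adjusted p = 2.00e-04). ATP5MC2 gave 0.21 (adjusted p = 0.203). ATP5IF1 was at 19.5 and 14.9 CPM and then at 44.7 and 37.9 CPM (1.27 ± 0.16, adjusted p = 5.71e-05). ATP5MK, a small membrane subunit, was at 36.5 and 22.01 CPM and then at 82.8 and 63.8 CPM (1.33 ± 0.21). ATP5F1B was at 334.9 and 374.6 CPM and then at 595.9 and 605.6 CPM (0.76 ± 0.12, adjusted p = 2.04e-04), while its partner ATP5F1A gave 0.11 (adjusted p = 0.455), with overlapping groups. Summed over the 85 genes, the level was 4263 and 4125 CPM with the vector and 6700 and 6130 CPM with mutant HRAS. In the separately scaled IMR-90 set it was 4475 and 4805 CPM in IMR-90 at PDL 15, 5659 and 5735 CPM after irradiation and 5672 and 5431 CPM at PDL 52.

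**Figure D3:**
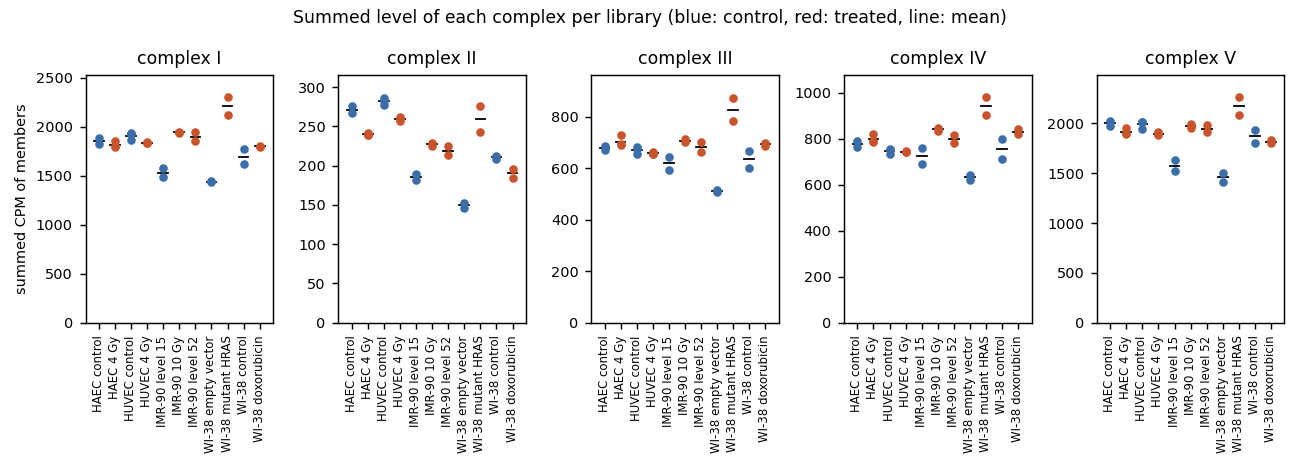
Summed CPM of the subunit genes of each complex in every library of the HAEC, HUVEC, IMR-90, first doxorubicin and HRAS experiments (blue controls, red treated, line at the group mean). The 2 HRAS libraries lie above the 2 vector libraries in each complex. In HAEC and HUVEC the complex II and complex V sums of all irradiated libraries lie below those of the controls.

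In endothelium the changes were small and went both ways. In irradiated HAEC, 11 of 81 genes were higher and 21 lower (median -0.04), against 27.8% and 29.2% of protein-coding genes (median 0.00). In irradiated HUVEC, 11 were higher and 24 lower (median -0.04), against 25.2% and 30.7% (median -0.01). The shares of subunit genes called lower, 21 and 24 of 81, were near those backgrounds, and the shares called higher were below them. The splits moved with single libraries and the filter: HUVEC had 5 higher and 23 lower without the second irradiated library and 6 and 28 with no filter, and HAEC had 13 and 13 without the first control library. In HAEC the sum of 6 endothelial markers was 1012 to 1033 CPM in controls and 1310 to 1360 CPM after irradiation (3 higher), and in HUVEC 1087 to 1176 CPM and then 1208 to 1210 CPM (3 higher, 2 lower), and the part of these shifts in the subunit results was not tested. The 2 cell types, which share no library, had 7 higher genes in common (of 11 in each). They had 12 lower genes in common (of 21 and of 24), and 1 gene was called in opposite directions. The overlap over all genes is not given here, so these counts are not read as particular to subunit genes. Of the 7 core subunits of complex I tested, 5 were lower and none higher in HAEC, and 3 were lower and 1 higher in HUVEC.

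NDUFC1 gave the largest rise in HAEC. It was at 25.8 and 24.0 CPM in controls and at 54.1, 55.6 and 56.0 CPM after irradiation (1.15 ± 0.04, adjusted p = 1.31e-14), well apart from the controls. In HUVEC it was at 45.9, 49.6 and 50.5 CPM in controls and at 52.7, 52.3 and 52.5 CPM after irradiation (0.11 ± 0.04, adjusted p = 0.033). In a joint fit, HUVEC controls were above HAEC controls by 0.90 ± 0.04 on the log2 scale (adjusted p = 4.67e-15), and the difference of the responses was -1.04 ± 0.06 (adjusted p = 2.66e-13). NDUFA12, an accessory subunit of complex I, was at 56.1 and 54.8 CPM in HAEC controls and at 42.6, 43.2 and 43.2 CPM after irradiation (-0.37 ± 0.04, adjusted p = 7.40e-08), and in HUVEC it gave -0.19 ± 0.04 (adjusted p = 2.99e-04). NDUFA6, which binds the acyl carrier protein, was at 49.9, 50.6 and 53.8 CPM in HUVEC controls and at 42.9, 41.6 and 40.7 CPM after irradiation (-0.30 ± 0.04, adjusted p = 1.01e-06). NDUFA3 was at 10.0, 9.17 and 9.17 CPM in HUVEC controls and at 11.4, 12.6 and 11.1 CPM after irradiation (0.31 ± 0.07, adjusted p = 4.31e-04). NDUFS8, an iron-sulfur core subunit, fell in HAEC (-0.24 ± 0.04, adjusted p = 1.51e-04) and rose in HUVEC (0.10 ± 0.04, adjusted p = 0.0483), and the difference of the responses was 0.35 ± 0.06 (adjusted p = 1.07e-04).

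In complex II, SDHA was at 120.1 and 112.0 CPM in HAEC controls and at 93.3, 90.2 and 94.4 CPM after irradiation (-0.33 ± 0.04, adjusted p = 3.30e-07), and gave -0.13 ± 0.03 in HUVEC (adjusted p = 0.00479). SDHB was at 64.8, 67.2 and 68.7 CPM in HUVEC controls and at 57.1, 57.7 and 54.7 CPM after irradiation (-0.24 ± 0.04, adjusted p = 9.25e-06), and gave -0.08 ± 0.04 in HAEC (adjusted p = 0.106). SDHC went the other way and was called higher in both cell types. Over the alternatives it gave 0.15 to 0.20 in HAEC, not called in 2 of 10, and 0.14 to 0.20 in HUVEC. The summed levels of complex II and of complex V were lower in each irradiated library than in each control of the same cell type. For complex I this held in HUVEC and not in HAEC. In complex III, UQCRB was at 153.2 and 145.3 CPM in HAEC controls and at 172.8, 187.9 and 174.4 CPM after irradiation (0.26 ± 0.04, adjusted p = 1.33e-05), with 0.04 in HUVEC (adjusted p = 0.496). In complex IV, COX7A2L was at 74.2 and 72.9 CPM in HAEC controls and at 83.9, 89.6 and 86.6 CPM after irradiation (0.24 ± 0.04, adjusted p = 2.21e-05), and COX8A at 67.2 and 62.6 CPM and then at 54.8, 54.2 and 53.5 CPM (-0.26 ± 0.04, adjusted p = 1.10e-05). COX7C, lower in IMR-90, was higher in both endothelial types (0.14 ± 0.03, adjusted p = 0.00242, and 0.18 ± 0.04, adjusted p = 6.42e-04).

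The c-ring genes of complex V again moved apart, in directions opposite to those in IMR-90. ATP5MC1 was at 50.8 and 50.6 CPM in HAEC controls and at 37.4, 36.3 and 36.7 CPM after irradiation (-0.46 ± 0.04, adjusted p = 3.68e-09). In HUVEC it was at 47.8, 47.0 and 46.7 CPM in controls and at 38.1, 36.2 and 37.8 CPM after irradiation (-0.34 ± 0.04, adjusted p = 9.18e-08). ATP5MC2 was at 79.2 and 80.3 CPM in HAEC controls and at 90.3, 90.7 and 91.5 CPM after irradiation (0.19 ± 0.03, adjusted p = 1.08e-04). In HUVEC it was at 81.2, 80.9 and 81.3 CPM and then at 88.4, 91.6 and 85.4 CPM (0.13, adjusted p = 0.00737), not called without the second irradiated library (0.10, adjusted p = 0.0633). ATP5MC3 gave -0.01 and -0.09. For ATP5MC1 and ATP5MC2 no irradiated library overlapped the controls in either cell type. ATP5IF1 gave -0.18 ± 0.05 in HAEC (adjusted p = 0.00556) and 0.06 ± 0.04 in HUVEC (adjusted p = 0.306). Between the responses of the 2 cell types, 11 subunit genes differed, 7 more positive and 4 more negative in HUVEC, against 28.9% of protein-coding genes. With scaling on nuclear protein-coding genes these were 7 and 7, against 13.4% and 15.9% of protein-coding genes. The count was 19 (3 and 16) without the first HUVEC control library and 6 without the second HAEC control library.

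**Figure D4:**
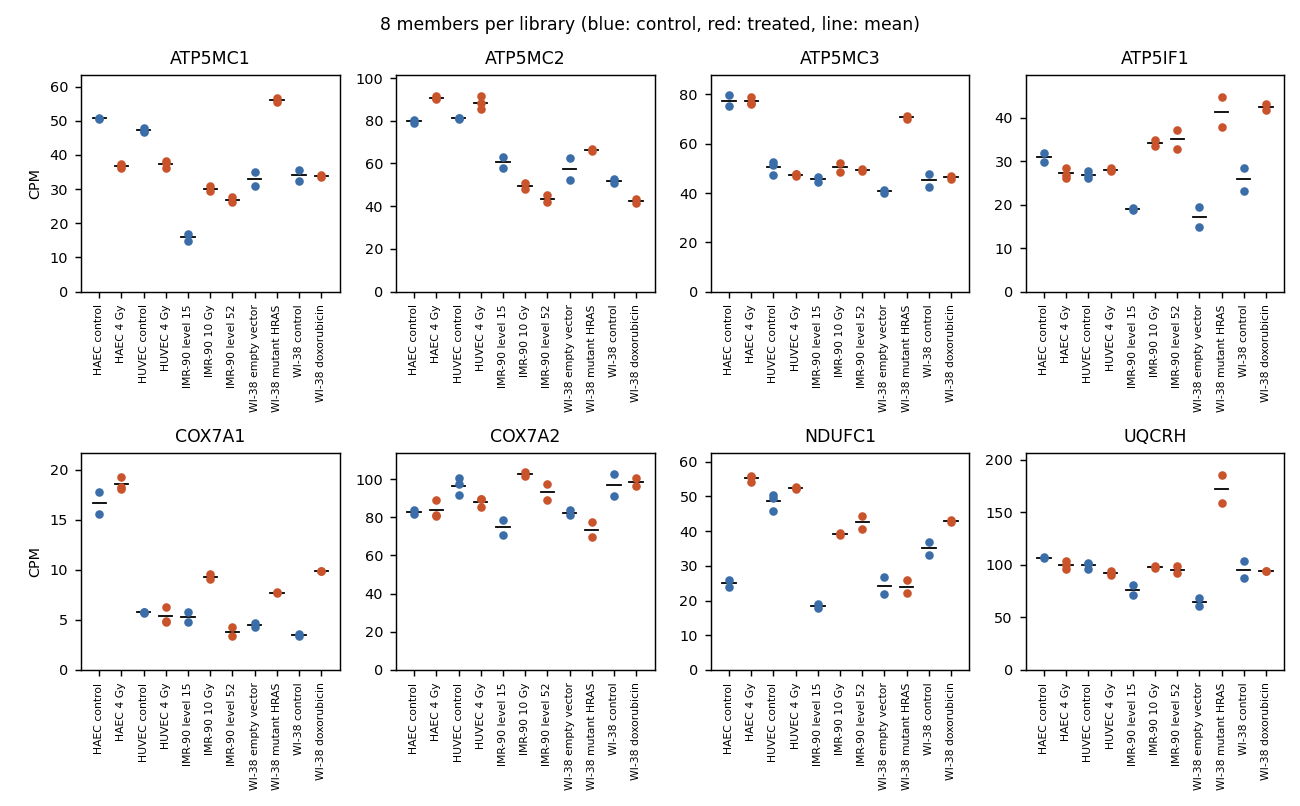
CPM per library of ATP5MC1, ATP5MC2, ATP5MC3, ATP5IF1, COX7A1, COX7A2, NDUFC1 and UQCRH in the HAEC, HUVEC, IMR-90, first doxorubicin and HRAS experiments (blue controls, red treated, line at the group mean). ATP5MC1 is lower after irradiation in HAEC and HUVEC (36.2 to 38.1 CPM) and higher in IMR-90 (29.3 and 30.9 CPM), and ATP5MC2 shows the reverse.

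In the first WI-38 doxorubicin experiment, fitted with the HRAS experiment, 7 of 82 subunit genes were called higher and 1 lower (median 0.07). Among protein-coding genes 18.9% were called higher and 18.6% lower (median 0.01). The number of calls depended on this shared fit, as given at the end of the paragraph. With scaling on nuclear protein-coding genes 6 subunit genes were higher and 3 lower, against 17.7% and 20.4% of protein-coding genes. Marker sums moved with the groups, from 4341 and 4421 to 7750 and 7999 CPM for 7 lung fibroblast genes (5 higher), from 95.2 and 98.4 to 224 and 238 CPM for 6 endothelial genes (1 higher, 3 lower), from 115 and 121 to 55.8 and 58.7 CPM for 5 smooth muscle genes (2 lower) and from 28.99 and 31.7 to 15.1 and 16.6 CPM for 6 epithelial genes (2 higher, 3 lower). The part of these shifts in the subunit results was not tested. COX7A1 was at 3.43 and 3.59 CPM in controls and at 9.89 and 9.92 CPM after doxorubicin (2.82-fold, log2 fold change 1.498 ± 0.14, adjusted p = 8.51e-06), well apart. ATP5IF1 was at 23.2 and 28.5 CPM and then at 43.1 and 41.8 CPM (0.71 ± 0.16, adjusted p = 0.00606). It was not called without the first control library (0.57, adjusted p = 0.10) or the first doxorubicin library (0.69, adjusted p = 0.0524). UQCR11, a small subunit of complex III, was at 73.5 and 85.6 CPM and then at 123.1 and 120.4 CPM (0.61 ± 0.13, adjusted p = 0.00458), with 0.51 (adjusted p = 0.0804) without the first control library. NDUFA9, the accessory subunit beside the ubiquinone site, was the lower one, at 62.3 and 62.2 CPM and then at 43.1 and 42.4 CPM (-0.54 ± 0.12, adjusted p = 0.00414). With only 1 doxorubicin library left it gave -0.56 in each case (adjusted p = 0.0567 and 0.0614). The count of calls itself was 2 without the first control or the first doxorubicin library and 4 without the second doxorubicin library. A fit of these 4 libraries alone called 29 genes higher and 16 lower.

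The responses to mutant HRAS and to the first doxorubicin treatment, which have separate controls, differed for 43 subunit genes. Of these, 42 were more positive with HRAS and 1 more negative. Among protein-coding genes 48.9% differed, 32.5% more positive and 16.4% more negative. With scaling on nuclear protein-coding genes, 24 subunit genes were more positive and 2 more negative, against 23.8% and 20.3% of protein-coding genes. By complex, 19 of the 42 were in complex I, 2 in complex II, 4 in complex III, 5 in complex IV and 12 in complex V. The smallest adjusted p were for UQCRH, UQCRHL and NDUFC2 (differences of 1.42, 1.45 and 1.14). The negative one was COX7A1 (-0.71 ± 0.19, adjusted p = 0.0132), not called when any of 3 libraries was left out: the first or second doxorubicin control (-0.68 and -0.74, adjusted p = 0.0752 and 0.0551) or the first doxorubicin library (-0.71, adjusted p = 0.0661). The count was 22 without the second doxorubicin control, 23 and 18 without the first and second doxorubicin library and 27 without the first HRAS library.

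In the repeat doxorubicin experiment no subunit gene was called by edgeR, against 5.09% of protein-coding genes higher and 3.35% lower. Values were below 0 for 66 of 83 genes (median -0.30, against 0.03 for protein-coding genes). An unadjusted p below 0.05 was reached by 22 of them, against 6405 of all 33612 genes tested. DESeq2's Wald test called 2 higher and 11 lower. The 2 control libraries differed from each other: UQCRH was at 330.9 and 168.9 CPM, NDUFA13, the GRIM-19 subunit of complex I, at 57.5 and 22.6 CPM, and ATP5IF1 at 160.5 and 53.2 CPM. Leaving out the second control library gave 1 gene higher and 20 lower. COX7A1 was at 10.5 and 5.15 CPM in controls and at 5.50 and 7.72 CPM after doxorubicin, overlapping groups (-0.24, adjusted p = 0.785). The difference from the first experiment was -1.72 ± 0.43 (adjusted p = 0.0207) and was not called without either first-experiment control (-1.68 and -1.76, adjusted p = 0.0715 and 0.0533), without the first repeat control (-1.09, adjusted p = 0.192) or without the first repeat doxorubicin library (-1.51, adjusted p = 0.0772). With NDUFA9 it made 2 genes that differed between the experiments, 1 each way, against 7.53% of protein-coding genes, and with scaling on nuclear protein-coding genes these were 0 and 1. The experiments differ in the kind of library, and that and the experiment cannot be told apart. CDKN1A, higher in the first experiment (1.72), was at 0.09 in the repeat (adjusted p = 0.877), and MKI67 was lower in both.

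In irradiated WI-38, 4 of 83 subunit genes were higher and none lower (median 0.19), against 12.2% and 8.63% of protein-coding genes. In WI-38 at PDL 53 to 55, 2 were higher and none lower (median 0.20), against 8.49% and 10.5%. NDUFB5, of the membrane arm of complex I, was at 14.7 and 16.1 CPM in unirradiated cells and at 27.3 and 25.8 CPM after irradiation (0.78 ± 0.19, adjusted p = 0.0136). COX7A1 was at 7.03 and 7.33 CPM and then at 13.6 and 17.9 CPM (1.13 ± 0.35, adjusted p = 0.0427), and ATP5IF1 at 76.3 and 82.4 CPM and then at 159.9 and 184.7 CPM (1.12 ± 0.36, adjusted p = 0.0478). The remaining call was ATP5MK (0.73 ± 0.22, adjusted p = 0.033). With scaling on nuclear protein-coding genes 1 call was left, and COX7A1, ATP5IF1 and ATP5MK had adjusted p of 0.0589, 0.0685 and 0.0523, while the size factors of DESeq2 left 2 calls. In each of these 4 the groups lay apart, yet no subunit gene was called without the first or the second control library, and 1 was called without the second irradiated library. Without the first control library NDUFB5, COX7A1, ATP5IF1 and ATP5MK gave 0.72, 1.11, 1.06 and 0.73. At PDL 53 to 55, NDUFC1 was at 24.5 and 27.6 CPM against 16.9 and 14.5 CPM in proliferating cells (0.73 ± 0.20, adjusted p = 0.0231). NDUFA7, which shares 81.8% of its 31-base stretches with other genes and is therefore uncertain, gave 0.78 ± 0.21 (adjusted p = 0.0245). Neither was called without the second late-passage library (0.64 and 0.53) or without either proliferating library, and 11 genes were called without the first late-passage library.

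The fibroblast lines were compared in the same exposures. For irradiation the responses of 7 subunit genes were lower in WI-38 than in IMR-90 and none higher, against 30.2% of protein-coding genes, and with scaling on nuclear protein-coding genes these were 4 and 1. Leaving out any of the 2 IMR-90 controls, the 2 irradiated IMR-90 libraries or the 2 unirradiated WI-38 libraries left 3. ATP5MC1 differed by -1.08 ± 0.23 (adjusted p = 0.0023), NDUFA12 by -0.90 (adjusted p = 0.0033) and NDUFA9 by -0.81 (adjusted p = 0.00434). In WI-38, ATP5MC1 was at 47.0 and 53.7 CPM without and 42.8 and 52.7 CPM with irradiation, groups that overlap. For late passage no subunit gene differed by edgeR, against 19.6% of protein-coding genes. An unadjusted p below 0.05 was reached by 9 subunit genes, against 8619 of all 36597 genes tested. Without the first WI-38 late-passage library 3 differed. Within WI-38 the responses to irradiation and late passage differed for 1 gene, NDUFB5 (1.05), against 9.12%. No gene was called without the first or second unirradiated, the first irradiated or the first or second proliferating library, and 4 were without the second irradiated or the first late-passage one. The lines were sequenced as different kinds of library, so line and kind cannot be told apart. Power was gauged on simulated data with 200 genes changed. There 61% and 65% of 4-fold and 11% and 6% of 2-fold differences between the lines were recovered, for irradiation and late passage. Between irradiation and late passage in WI-38 these were 59% and 2%. Many more genes were called in the real data, which makes the adjusted threshold less strict, so these rates may understate recovery there. Differences that were not called may still have been missed.

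Levels in unexposed cells were compared as well. Counted over both directions, the shares of subunit genes that differed were below those of all protein-coding genes. HUVEC controls had 4 subunit genes higher and 34 lower than HAEC controls. Among protein-coding genes 27.6% were called higher and 24.3% lower, 51.9% in either direction. The share of subunit genes called lower was thus above its background. The excess of lower calls was smaller without the first HAEC control library. COX7A1 was at 17.8 and 15.6 CPM in HAEC and at 5.82, 5.68 and 5.82 CPM in HUVEC, each scaled within its cell type, and the joint fit put it lower in HUVEC (-1.60 ± 0.08, adjusted p = 1.52e-14). ATP5MC3 and ATP5PD, of the c-ring and the stator, were also lower in HUVEC (-0.69 ± 0.04 and -0.30 ± 0.04). NDUFC1 was higher (0.90), as was COX7A2 (0.15). Between endothelial and fibroblast controls 19 genes were higher and 23 lower in endothelium. Among protein-coding genes 34.3% were higher and 38.9% lower, 73.2% in either direction. ATP5MC1 (0.85 ± 0.05), SDHA (0.70 ± 0.05) and COX7A1 (0.97 ± 0.08) were higher, and SDHC (-0.83 ± 0.06), NDUFA4 (-0.67 ± 0.09) and UQCRC1 (-0.60 ± 0.05) lower. Without the IMR-90 libraries, that is against the WI-38 controls of the first doxorubicin experiment alone, 6 were higher and 33 lower, and ATP5MC1 stood at 0.23. With scaling on nuclear protein-coding genes the split was 23 higher and 17 lower, against 37.1% and 36.3% of protein-coding genes.

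Other genes of the chain were counted from lists by function. Among all protein-coding genes tested, 27.8% were higher and 29.2% lower in HAEC and 25.2% and 30.7% in HUVEC. The shares were 38.5% and 27.3% in irradiated IMR-90, 38.5% and 27.8% at PDL 52 and 38.8% and 19.9% with mutant HRAS. They were 18.9% and 18.6% after the first doxorubicin treatment, 12.2% and 8.63% in irradiated WI-38 and 8.49% and 10.5% at PDL 53 to 55. List counts near these shares are not read as particular to a list. Of the 13 protein-coding genes of mitochondrial DNA, 12 were higher in irradiated IMR-90 (median 0.37), 11 at PDL 52 (0.30) and 13 with mutant HRAS (0.94), with none lower. In HAEC 1 was higher and 3 lower, and in HUVEC 2 were higher and 1 lower. In WI-38 irradiation 5 were higher (median 0.79) and at PDL 53 to 55 11 were higher (1.35), none lower, in libraries where 4 and 2 nuclear subunit genes were called. MT-ND3, of complex I, gave 1.85 with mutant HRAS and 1.82 in irradiated WI-38. Among 48 assembly factors, which build the complexes without staying in them, 5 were higher and 20 lower in HAEC, 3 and 24 in HUVEC, 24 and 5 in irradiated IMR-90, 19 and 10 at PDL 52, 5 and 9 after doxorubicin and 29 and 2 with mutant HRAS. SCO2, which delivers copper to complex IV, gave 1.32 with mutant HRAS, and COX17, a copper chaperone, 1.16 in IMR-90 at PDL 52.

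Of the chain genes outside the naming pattern, CYCS, which encodes cytochrome c, was at 192, 197 and 201 CPM in HUVEC controls and at 121, 122 and 119 CPM after irradiation (-0.70). In IMR-90 it was at 58.4 and 61.3 CPM at PDL 15, 141 and 145 CPM after irradiation (1.26) and 132 and 130 CPM at PDL 52 (1.13), and with mutant HRAS it gave 1.21. CYC1, the cytochrome c1 of complex III, and NDUFAB1, the mitochondrial acyl carrier protein, had the same signs: -0.22 and -0.15 in HAEC, -0.21 and -0.29 in HUVEC, 0.69 and 1.21 in irradiated IMR-90 and 0.72 and 0.85 with mutant HRAS. COX4I1, the main form of a core-contacting subunit of complex IV, gave 0.12 in HAEC (adjusted p = 0.00672) and 0.52 with mutant HRAS (adjusted p = 0.00503). NDUFA4L2, a paralog of NDUFA4 known to be induced in hypoxia, fell by 2.29 and 2.13 on the log2 scale in the IMR-90 comparisons and by 1.32 with mutant HRAS. Of the regulators of mitochondrial gene expression, TFAM, which packages and transcribes mitochondrial DNA, gave -0.62 in HAEC, -0.61 in HUVEC, 0.44 in irradiated IMR-90, 0.22 at PDL 52, -0.83 after doxorubicin and 0.96 with mutant HRAS. PPARGC1A, a coactivator of mitochondrial biogenesis, was at 17.3 and 12.03 CPM in IMR-90 at PDL 15, 0.209 and 0.142 CPM after irradiation (-6.36) and 0.179 and 0.0737 CPM at PDL 52 (-6.82).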

How the data were processed

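Total RNA was depleted of ribosomal RNA and sequenced as read pairs on a HiSeq, per the labels' protocols. The authors deposited raw counts per Ensembl gene. Listed in the submitters' processing notes are hg19 as the build and bcl2fastq, cutadapt, STAR 2.4 and featureCounts as tools. Annotation release and strand setting were not given in the sources used here. Of 57773 gene identifiers, 51996 matched the names table. Each of HAEC, HUVEC, IMR-90, the first WI-38 set (doxorubicin, HRAS) and the second WI-38 set was fitted with edgeR 4.0.16 in R 4.3.3 (TMM, filterByExpr, quasi-likelihood test, Benjamini-Hochberg adjustment over all genes tested, threshold 0.05). CPM are TMM-scaled within a set, and the SE was derived from the log2 fold change and the F statistic. Differences between sets come from joint fits. On simulated data with 200 genes changed, 78 to 100% of 4-fold and 33 to 94% of 2-fold changes were recovered in the 9 comparisons. In the 7 differences of responses these were 59 to 99% and 2 to 86%. All recovered changes had the right sign. Of the calls made there, 3.12 to 10.13% were of genes simulated without a change. Many more genes were called in the real data, so recovery may differ there. Alternatives were DESeq2 1.42.0 and its size factors, scaling on nuclear protein-coding genes, no filter, fewer groups, the replicate block and each library left out. Replicates differed by more than sampling noise (chi-square per degree of freedom 8.5 to 534.3). Named genes are 4 check markers (NDUFS1, SDHB, UQCRC1, COX4I1), the 3 smallest adjusted p per direction and comparison, the largest changes per complex, paralogs, and the top call of each other list, with a few more chosen after their values were seen. The subunit genes and lists were chosen with earlier results of these data known. Gene positions and shared or overlapping sequence are from GENCODE v29: 31 of the 85 genes share at least 20% of their 31-base stretches with other genes and 34 overlap a gene on the opposite strand. Of the 33 tested genes with neither and no overlap on their own strand, 25 were higher and 1 lower in irradiated IMR-90, 19 and 3 at PDL 52 and 25 and 0 with mutant HRAS. The values of 1 complex I gene are not reported here, though it is included in the counts.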

Additional observations from a re-analysis of the deposited data

Results flagged for a closer look

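In each of these results the responses of 2 groups differed in a test of the difference itself (edgeR's quasi-likelihood test, adjusted p below 0.05). Between HUVEC and HAEC irradiation 11 subunit genes differed, among them NDUFC1 (-1.04), NDUFS8 (0.35), COX7A2L (-0.24), UQCRB (-0.22), SDHA (0.20) and ATP5IF1 (0.24), the last 2 not called in 4 of 14 alternatives each (SDHA at 0.10, adjusted p = 0.279, without the first HAEC control library). Among protein-coding genes 28.9% differed. Between irradiated and late-passage IMR-90, which share their controls, 2 differed against 15.4% of protein-coding genes, COX7A1 (1.28) and NDUFA9 (0.25, not called without either irradiated library, adjusted p = 0.121 and 0.137). Between mutant HRAS and the first doxorubicin treatment 43 of 82 differed, 42 more positive with HRAS and 1 more negative. Among protein-coding genes 32.5% were more positive and 16.4% more negative, 48.9% in either direction. The smallest adjusted p were for UQCRH (1.42), UQCRHL (1.45) and NDUFC2 (1.14), and COX7A1 was the negative one (-0.71).

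Between the repeat and the first doxorubicin experiments 2 differed against 7.53%, NDUFA9 (0.73, not called in 10 of 11 alternatives) and COX7A1 (-1.72). Between WI-38 irradiation and late passage 1 differed against 9.12%, NDUFB5 (1.05, not called in 7 of 11 alternatives). Between WI-38 and IMR-90 irradiation 7 differed against 30.2%, with the smallest adjusted p for ATP5MC1 (-1.08), NDUFA12 (-0.90) and NDUFA9 (-0.81). In the last comparison and in that of the doxorubicin experiments the kind of library differs too.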

How the results depend on the processing

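Of 188 recomputed counts of called genes, 125 were within 1.5 times the reported one. Of 2244 recomputed values of single genes, 2070 stayed on their side of the threshold (uncalled values among them could change sign), 127 lost and 46 gained a call, and 1 turned to a call in the other direction: NDUFA4 with mutant HRAS, at -0.38 without the second vector library and 0.41 without the first. Scaling on nuclear protein-coding genes gave 39 calls with mutant HRAS, 1 in repeat doxorubicin, 1 in WI-38 irradiation, 4 in WI-38 late passage, 26 for HRAS minus doxorubicin, 1 for the repeat minus the first doxorubicin experiment and 0 for WI-38 irradiation minus late passage. Size factors of DESeq2 gave 2 in WI-38 irradiation. No filter gave 14 in repeat doxorubicin, 6 in WI-38 late passage, 10 for the repeat minus the first experiment and 3 for WI-38 irradiation minus late passage. DESeq2's Wald test gave 13 in repeat doxorubicin and 6 in WI-38 late passage. The compared groups alone gave 45 in the first doxorubicin experiment, 39 with mutant HRAS and 6 in WI-38 late passage. The cause of these shifts was not tested.

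Same-numbered replicates did not deviate together (correlations of -0.0575 to 0.0784), so the numbers were not read as pairs. With the replicate block, 13 genes were called in the first doxorubicin experiment, 10 higher and 3 lower, and the other 8 counts stayed within 1.5 times. Leaving out each library in turn gave 25 to 35 calls in HAEC, 28 to 36 in HUVEC, 52 to 65 in irradiated and 47 to 60 in late-passage IMR-90, 2 to 7 in the first and 0 to 21 in the repeat doxorubicin experiment, 0 to 6 in WI-38 irradiation, 0 to 11 in WI-38 late passage and 43 to 70 with mutant HRAS. For the differences it gave 6 to 19 (HUVEC minus HAEC), 1 to 4 (IMR-90 irradiation minus late passage), 18 to 59 (HRAS minus doxorubicin), 0 to 21 (repeat minus first doxorubicin), 0 to 4 (WI-38 irradiation minus late passage), 3 to 8 and 0 to 3 (WI-38 minus IMR-90, irradiation and late passage), 23 to 34 (HUVEC against HAEC controls) and 34 to 40 (endothelial against fibroblast controls). A lone library left in a group is assumed to spread as the remaining groups do. Leaving out the IMR-90 libraries from the endothelial against fibroblast contrast, an alternative chosen after seeing the data, gave 39 calls, 6 higher and 33 lower. With 2 or 3 libraries a group, the depth of at least 102293388 counts is not what limits precision for well-expressed subunits, whereas COX6A2 and COX7B2 could not be tested.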

Other observations

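Of 76 genes of mitochondrial ribosomal proteins, which build the ribosome that translates the mitochondrially encoded subunits, 2 were higher and 44 lower in irradiated HAEC (median log2 fold change -0.15), and 0 and 57 in HUVEC (-0.20). In IMR-90 55 were higher and 5 lower after irradiation (0.36) and 42 and 7 at PDL 52 (0.22), with the same controls. With mutant HRAS 59 were higher and 1 lower (0.67), and in the first doxorubicin experiment 0 were higher and 26 lower (-0.36), where 7 respiratory chain subunit genes were higher and 1 lower. Of 17 genes of the citrate cycle, which supplies NADH and succinate to the chain, 2 were higher and 6 lower in HAEC, 2 and 9 in HUVEC, 14 and 2 in irradiated IMR-90, 12 and 2 at PDL 52, 0 and 5 after doxorubicin and 10 and 1 with mutant HRAS. The shares of protein-coding genes were 27.8% higher and 29.2% lower in HAEC, 25.2% and 30.7% in HUVEC and 38.5% and 27.3% in irradiated IMR-90. At PDL 52 they were 38.5% and 27.8%, after the first doxorubicin treatment 18.9% and 18.6%, and with mutant HRAS 38.8% and 19.9%. Counts near these shares are not read as particular to either list. IDH3A, a subunit of NAD-dependent isocitrate dehydrogenase, gave 0.95 in irradiated IMR-90 and 1.37 with mutant HRAS, and FH, fumarase, gave -0.45 in HAEC and -1.02 after doxorubicin. PPARGC1A, which fell in both IMR-90 comparisons, gave 2.60 after the first doxorubicin treatment, 1.65 in irradiated WI-38 and -1.64 in late-passage WI-38. ATP5MGL, a gene of a subunit g-like protein at the bottom of the range of levels, was at 0.087 and 0.040 CPM in IMR-90 at PDL 15 and at 0.27 and 0.35 CPM after irradiation (2.26 ± 0.54, adjusted p = 0.00326).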
